A study of Homo sapiens with 6 samples.

Results

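The genes described here are the NF-kB subunits NFKB1, NFKB2, REL, RELA and RELB, the pathway's inhibitors NFKBIA, NFKBIE and TNFAIP3, and the C/EBP transcription factors CEBPB and CEBPD. Every probe set whose only annotated gene symbol was one of these 10 was taken, whatever its signal, which gave 20 of the 54675 probe sets of the array. Each gene had at least 1 probe set. REL had 5, NFKB2 had 3, RELA, NFKBIA, TNFAIP3 and CEBPD had 2 each, and NFKB1, RELB, NFKBIE and CEBPB had 1 each.

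Caov-3 and SKOV-3, both lines grown from human ovarian carcinomas, were profiled on 6 Affymetrix arrays, 3 of each line. Within a line, 1 culture group received siltuximab (CNTO328, an antibody that binds IL-6) for 4 h before 1 h of IL-6, the next received IL-6 alone at 30 ng/ml for 1 h, and the last was untreated. The labels give no dose for the antibody, and cells given only the antibody were not analysed here. RNA of 3 flasks was pooled before labelling, so that each group is 1 array and has no replicate, and so few arrays limit the precision.

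NF-kB is a family of dimers. RELA, REL and RELB carry a domain that activates transcription, whereas NFKB1 and NFKB2 encode precursors that are cut to p50 and p52 and serve as partners. The inhibitors NFKBIA and NFKBIE hold dimers in the cytoplasm until a kinase complex marks them for degradation, and TNFAIP3 (A20) is an enzyme that edits ubiquitin chains and shuts the signal off. Several of these genes are themselves induced by NF-kB, which makes the pathway a feedback loop. CEBPB, first described as a nuclear factor for IL-6, and CEBPD, a target of STAT3, drive acute phase genes together with it.

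RefSeq promoter windows (GRCh38.p14, 250 bases before to 50 bases after a start site) were found for 7 of the 10 genes, in 12 windows. Shown are windows of the subunit genes REL and NFKB2 and of the inhibitor genes TNFAIP3 and NFKBIA, because each holds a match to the site through which NF-kB can act on its own genes. Each runs 5′ to 3′ on the gene's strand, and capitals mark a narrow form of the kappaB site that NF-kB binds, on either strand: GGGA, 2 bases of any kind, T, 1 base of any kind and CC.
REL, chr2:60881324-60881623, plus strand: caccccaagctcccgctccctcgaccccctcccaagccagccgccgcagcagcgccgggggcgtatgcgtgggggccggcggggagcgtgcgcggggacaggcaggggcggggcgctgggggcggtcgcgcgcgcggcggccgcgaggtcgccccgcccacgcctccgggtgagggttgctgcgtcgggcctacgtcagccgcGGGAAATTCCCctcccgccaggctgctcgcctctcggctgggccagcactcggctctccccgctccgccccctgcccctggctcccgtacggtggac
TNFAIP3, chr6:137867009-137867308, plus strand: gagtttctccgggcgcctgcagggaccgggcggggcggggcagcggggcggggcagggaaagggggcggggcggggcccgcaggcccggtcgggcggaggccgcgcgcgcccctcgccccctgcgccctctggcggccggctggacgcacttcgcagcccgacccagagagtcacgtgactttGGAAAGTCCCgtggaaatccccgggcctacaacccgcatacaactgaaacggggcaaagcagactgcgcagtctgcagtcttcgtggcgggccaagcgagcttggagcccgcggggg
NFKB2, window 3, chr10:102395455-102395754, plus strand: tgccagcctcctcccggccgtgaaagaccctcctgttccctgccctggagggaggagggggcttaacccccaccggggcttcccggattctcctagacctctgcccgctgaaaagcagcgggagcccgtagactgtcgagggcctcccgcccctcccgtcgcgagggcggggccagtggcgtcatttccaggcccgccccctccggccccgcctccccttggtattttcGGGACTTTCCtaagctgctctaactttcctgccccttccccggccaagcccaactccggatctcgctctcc
NFKBIA, chr14:35404700-35404999, minus strand: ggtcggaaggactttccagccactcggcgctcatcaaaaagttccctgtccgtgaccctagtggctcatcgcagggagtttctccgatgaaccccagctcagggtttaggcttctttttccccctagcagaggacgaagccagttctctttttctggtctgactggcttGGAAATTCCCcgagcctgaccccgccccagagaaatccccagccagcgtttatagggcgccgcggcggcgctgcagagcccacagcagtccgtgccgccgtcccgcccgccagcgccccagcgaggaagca

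The narrow form, chosen after the matches had been seen, was in 7 of the 12 windows and in 4.93% of all 35116 windows of this length. The wider form, GGG and CC with 5 bases of any kind between them, contains it and was in 12 of 12 and in 58.7% of all windows. TTGCNNAA, a C/EBP core, was in 0 of 12 and in 10.5% of all, and the STAT site TTCNNNGAA in 1 of 12, a RELA window, and in 7.66% of all. Matches on both strands were counted once where they overlapped in full. Counted from the start site, REL carried GGGAAATTCC from position -47 and NFKB2 carried GGGACTTTCC from position -21. NFKBIA carried GGAAATTCCC from position -81 and TNFAIP3 GGAAAGTCCC from position -67, both matches to the opposite strand. A match describes letters only and is no measurement of binding.

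Signals are MAS5 intensities scaled alike on all arrays, and folds are on a log2 scale after adding a pseudocount of 17.1, which understates the change of dim probe sets. A probe set was tested if its mean log2 value over the 6 arrays was at or above the median of all probe sets with 1 symbol, a rule that takes no account of group. A probe set dim in 1 line could thus pass through its signals in the other line alone. Of the 20 probe sets, 16 passed, covering all 10 genes. The other 4 were 2 of REL, 1 of NFKB2 and 1 of NFKBIA. They are described but entered no test.

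Both lines carried the epithelial keratins KRT8 (7079 to 8584) and KRT18 (25102 to 31109), and the pan-leukocyte PTPRC was dim on all arrays (1.96 to 35.1). Of 6 epithelial markers 4 were higher in Caov-3 and 0 lower. CDH1 was at 4763 to 5094 in Caov-3 and at 11.0 to 27.5 in SKOV-3, KRT19 at 7263 to 7936 in Caov-3 and at 4.37 to 57.9 in SKOV-3, and EPCAM at 22113 to 23634 in Caov-3 and at 1728 to 2223 in SKOV-3, so that CDH1 and KRT19 were dim in SKOV-3. Of the ovarian carcinoma markers, PAX8 was at 971 to 1056 in Caov-3 and at 495 to 683 in SKOV-3, MUC16 at 593 to 860 in Caov-3 and at 2.92 to 5.90 in SKOV-3, and WT1 was dim in both lines. Of 4 leukocyte markers 2 passed the filter, CD14 (573 to 667 in Caov-3, 77.6 to 135 in SKOV-3) and CD79A (149 to 344 over both lines). CD14 was higher in Caov-3, with a log2 difference of 2.43 (limma adjusted p 0.000182). Of 4 fibroblast markers only COL1A1 passed (3802 to 4826 in Caov-3, 217 to 339 in SKOV-3). Of 3 endothelial markers only PECAM1 passed, at 891, 331 and 1162 in Caov-3 with siltuximab plus IL-6, with IL-6 and untreated, against 125, 158 and 176 in SKOV-3, low on the Caov-3 IL-6 array with a log2 fold of -1.76. Their part in differences between the lines was not tested. The Caov-3 IL-6 array stood apart. It had 1060 probe sets at least 2-fold below both other arrays of its line, where the other 5 arrays had 30 to 55. The ratio of 5′ over 3′ ACTB control signal was 0.494 there, against 0.643 to 0.767 elsewhere, a measure of how far labelled RNA reached towards the 5′ end. The same ratio for the GAPDH control was not low there, at 1.05 against 0.957 to 1.07 elsewhere, so only 1 of these controls stood apart. Every Caov-3 fold below that has IL-6 alone on either side rests on this array.

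**Figure D1:**
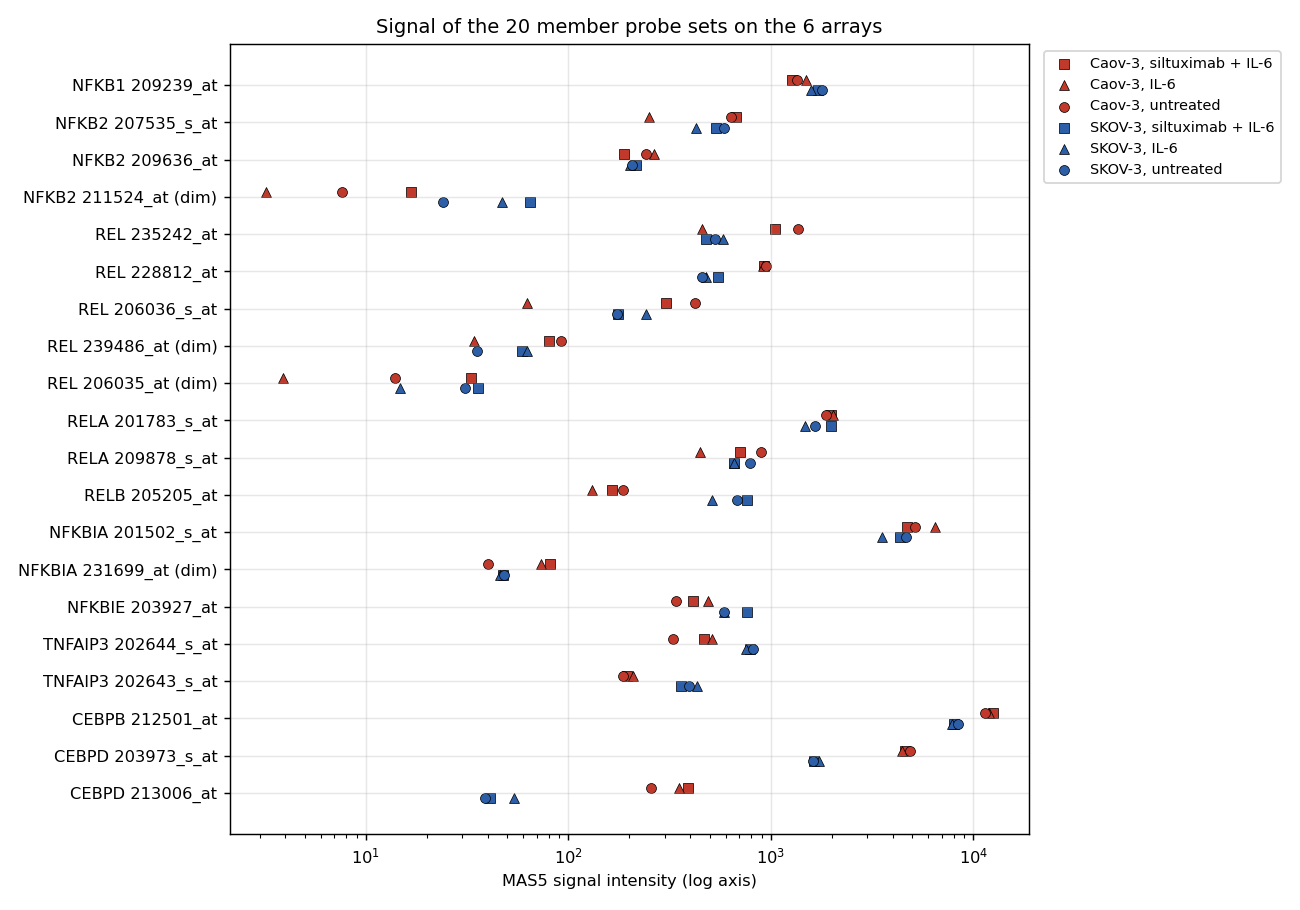
MAS5 signal (log axis) of each of the 20 probe sets on the 6 arrays, red for Caov-3 and blue for SKOV-3, with a square for siltuximab plus IL-6, a triangle for IL-6 and a circle for untreated. The CEBPD and RELB points split by line, while the Caov-3 IL-6 triangle lies far left of its line for REL 206036_s_at (62.4) and NFKB2 207535_s_at (250.5).

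The first comparison was between the lines. CEBPD, CEBPB and one REL probe set were higher in Caov-3, and RELB, both TNFAIP3 probe sets, NFKBIE and NFKB1 were lower in it. In limma over all 6 arrays with treatment as a block, 4 of the 16 member probe sets (3 genes) were higher in Caov-3, against 31.1% of all 20546 tested, and 5 (4 genes) were lower, against 32%. The members' counts lie near those shares, and the lines differed at 63.1% of all probe sets. Without overlap between the lines, 5 member probe sets were above and 5 below SKOV-3 in Caov-3, against 34.1% and 36% of all. The median difference of the 16 was 0.10 on log2, against -0.03 for all. The 3 arrays of a line are 3 treatments and not replicates, so the error includes how the treatments differ between lines. In bulk RNA, fewer cells that express a gene and less RNA per cell cannot be told apart.

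RELB (chr19:45001464-45038192, GRCh38.p14) is the activating partner of p52 in the alternative NF-kB pathway. Its probe set 205205_at was at 164, 132 and 186 in Caov-3 with siltuximab plus IL-6, with IL-6 and untreated, against 760.3, 511 and 682 in SKOV-3 in the same order. Every SKOV-3 array was above every Caov-3 array. The log2 difference of Caov-3 minus SKOV-3 was -1.91 ± 0.15 (SE), with a limma adjusted p of 0.000251, a 3.75-fold lower level in Caov-3. Within each line the IL-6 array was the lowest of the 3.

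TNFAIP3 (chr6:137866349-137883312) was measured by 2 probe sets that gave the same picture. On 202644_s_at it was at 467, 511 and 327 in Caov-3, against 785, 755 and 819.5 in SKOV-3, in the order siltuximab plus IL-6, IL-6 and untreated. On 202643_s_at it was at 196, 208 and 186 in Caov-3, against 359, 434 and 394 in SKOV-3. Neither probe set had lines that overlapped. The differences were -0.85 ± 0.17 and -0.95 ± 0.15 (SE, limma adjusted p 0.0081 and 0.00331).

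NFKBIE (chr6:44258166-44265551), an inhibitor that binds REL and RELA dimers, was at 414, 487 and 340.4 in Caov-3, against 762, 588 and 590.1 in SKOV-3. The lines did not overlap, and the log2 difference was -0.63 ± 0.16 (SE, limma adjusted p 0.0186). That call was lost in 4 of 14 alternative settings, each without 1 array, with adjusted p over all of them from 0.000874 to 0.126. NFKB1, the precursor of p50, was at 1273, 1491 and 1349.6 in Caov-3, against 1718, 1581 and 1787 in SKOV-3. Its difference of -0.30 ± 0.11 (SE) lay just past the threshold (limma adjusted p 0.0491) and was lost in 10 of 15 alternatives (0.00343 to 0.252).

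NFKBIA, the main inhibitor and a direct NF-kB target, was at 4702, 6444 and 5148 in Caov-3, against 4367, 3555 and 4655 in SKOV-3 on 201502_s_at. All Caov-3 arrays lay above all SKOV-3 arrays, but the log2 difference of 0.37 ± 0.16 (SE) missed the threshold (limma adjusted p 0.0952, 95% interval -0.03 to 0.77). Without the Caov-3 or without the SKOV-3 IL-6 array the difference was 0.13. The dim NFKBIA probe set 231699_at was at 81.2, 73.0 and 40.0 in Caov-3, against 47.6, 45.7 and 48.3 in SKOV-3.

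CEBPD was higher in Caov-3 on both of its probe sets. On 203973_s_at it was at 4602, 4457 and 4867 in Caov-3, against 1626, 1721 and 1613 in SKOV-3. The spread within a line was small beside the gap, with means of 4642 ± 208 in Caov-3 and 1653 ± 59.3 in SKOV-3 (SD, n = 3 arrays each). The log2 difference was 1.48 ± 0.08 (SE, limma adjusted p 7.75e-05), a 2.79-fold higher level in Caov-3. The second CEBPD probe set, 213006_at, was at 389, 354 and 255 in Caov-3, against 41.0, 54.1 and 38.7 in SKOV-3. It gave a difference of 2.49 ± 0.22 (SE, limma adjusted p 0.00037), which was 1.501 with a pseudocount of the median and up to 2.86 with one of 1. This probe set was dim in SKOV-3 and passed the filter only through its Caov-3 signals, so its call is weaker support than that of 203973_s_at.

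CEBPB (chr20:50190583-50192690) was at 12451, 11971 and 11427 in Caov-3, against 8015, 7873.5 and 8412 in SKOV-3, with no overlap and a log2 difference of 0.56 ± 0.07 (SE, limma adjusted p 0.00105). The calls of CEBPD, CEBPB, RELB, TNFAIP3 and REL 228812_at were kept in every alternative in which the probe set was tested.

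**Figure D2:**
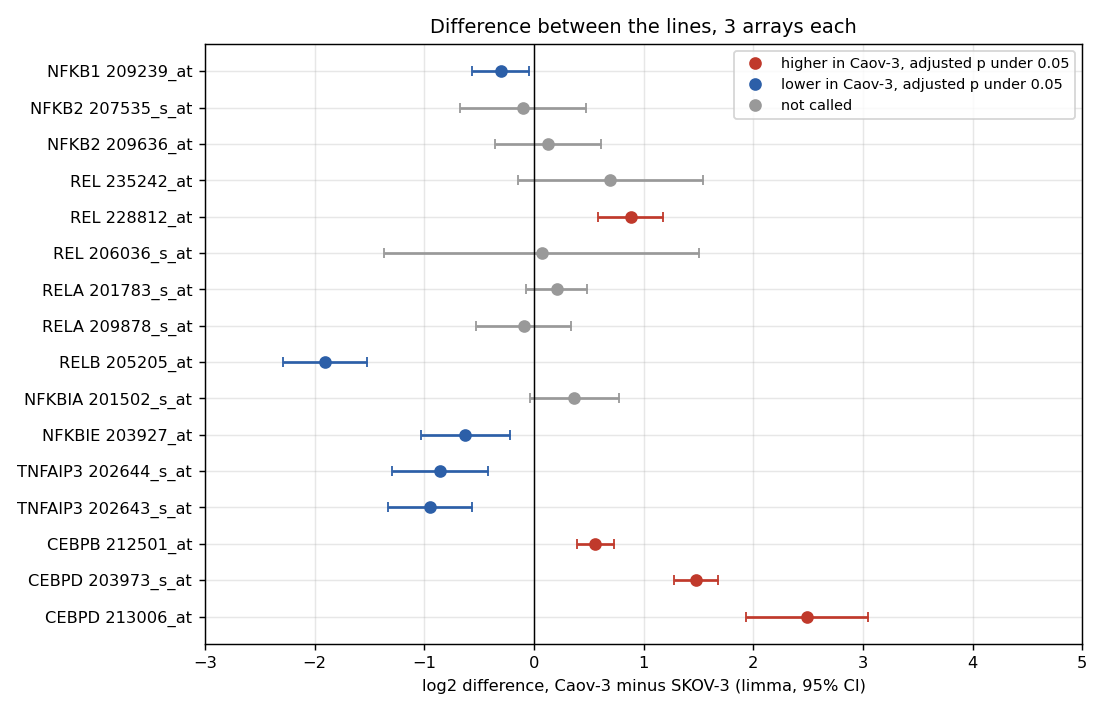
Log2 difference of Caov-3 minus SKOV-3 for the 16 tested member probe sets, with the 95% confidence interval of the limma fit over 6 arrays. Red points (CEBPD, CEBPB and REL 228812_at) are higher and blue points (RELB, TNFAIP3, NFKBIE and NFKB1) lower in Caov-3 at an adjusted p under 0.05, and grey points were not called.

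Probe sets of one gene did not always give the same line difference. REL (chr2:60881574-60931612) encodes c-Rel, an activating subunit best known from lymphocytes. Its probe set 228812_at was at 921, 910.1 and 942 in Caov-3, against 550.2, 479 and 455 in SKOV-3, a log2 difference of 0.88 ± 0.12 (SE, limma adjusted p 0.00158). REL 235242_at, its probe set of highest mean signal, had a difference of 0.70 ± 0.33 (SE, limma adjusted p 0.121), and 206036_s_at one of 0.07 ± 0.57 (0.919). Without the Caov-3 IL-6 array these became 1.22 and 0.96, both called (limma adjusted p 2.55e-05 and 0.00345), within ranges over all alternatives of 2.55e-05 to 0.447 and 0.00345 to 0.965. Those fits have 1 residual degree of freedom, and the SKOV-3 IL-6 array then has no partner. The dim REL probe set 206035_at was at 33.1, 3.89 and 14.0 in Caov-3, against 35.7, 14.8 and 30.7 in SKOV-3, lowest on the IL-6 array of both lines. The other dim one, 239486_at, was at 80.3, 34.1 and 92.5 in Caov-3, against 59.0, 62.7 and 35.4 in SKOV-3.

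NFKB2 and RELA did not differ between the lines beyond their error on any of their 4 tested probe sets (limma adjusted p 0.154 to 0.73). RELA, the main activating subunit, was at 1991, 2039 and 1866 in Caov-3, against 1985, 1483 and 1661 in SKOV-3 on 201783_s_at, with a 95% interval of -0.07 to 0.49 for the log2 difference. The interval for NFKB2 on 207535_s_at, -0.67 to 0.48, holds a level 1.5-fold lower in Caov-3 as well as no difference. The dim NFKB2 probe set 211524_at was at 16.7, 3.22 and 7.59 in Caov-3, against 64.7, 47.1 and 24.2 in SKOV-3.

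The next comparison asked what 1 h of IL-6 did to these genes. In Caov-3, 4 of the 16 probe sets (of REL, NFKB2 and RELA) were at least 1.5-fold lower with IL-6, against 12.6% of all tested, and 1 (TNFAIP3) was at least 1.5-fold higher, against 4.17%. In SKOV-3 no tested member probe set passed 1.5-fold in either direction, where 4.58% of all were higher and 3.87% lower. These are folds of 1 array over 1 array with no replicate check, and every Caov-3 fold here uses the IL-6 array whose ACTB ratio was low. Whether the state of that array has a part in them was not tested. Of all probe sets at least 1.5-fold apart in Caov-3, 24.9% were higher with IL-6, against 43.1% after quantile and 42.1% after cyclic loess normalization.

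On REL 206036_s_at the signal was at 62.4 with IL-6 and 422 untreated in Caov-3, a log2 fold of -2.47 (-1.62 with a pseudocount of the median), against 243 with IL-6 and 174 untreated in SKOV-3, a fold of 0.44. On REL 235242_at it was at 457 with IL-6 and 1361 untreated in Caov-3 (-1.54), and at 583 with IL-6 and 529 untreated in SKOV-3 (0.13). REL 228812_at gave log2 folds of -0.05 in Caov-3 and 0.07 in SKOV-3. The same gene was thus 5.52-fold lower, 2.91-fold lower or near its untreated level on the same pair of arrays, depending on the probe set.

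NFKB2 split in the same manner. Its 207535_s_at was at 250.5 with IL-6 and 639 untreated in Caov-3, a log2 fold of -1.29, and at 428 with IL-6 and 587 untreated in SKOV-3, a fold of -0.44. The other tested probe set, 209636_at, was at 265 with IL-6 and 241 untreated in Caov-3 (0.13), and at 202 with IL-6 and 206 untreated in SKOV-3 (-0.02). RELA 209878_s_at was at 447 with IL-6 and 890.0 untreated in Caov-3 (-0.97), while RELA 201783_s_at gave 0.13 there. In SKOV-3 these RELA folds were -0.25 and -0.16.

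The spread between probe sets was common on that array. Among 5436 genes with at least 2 tested probe sets, 24.2% had folds over 1 log2 unit apart for IL-6 over untreated in Caov-3, and 3 of the 5 member genes of this kind did (REL, NFKB2 and RELA). For IL-6 over untreated in SKOV-3 the share was 6.82%, with 0 of 5 members. For siltuximab plus IL-6 over untreated in Caov-3, which leaves out the IL-6 array, it was 5.17%, again with 0 of 5. Not every member split in Caov-3, since the folds of the TNFAIP3 probe sets lay 0.47 apart and those of CEBPD 0.57.

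**Figure D3:**
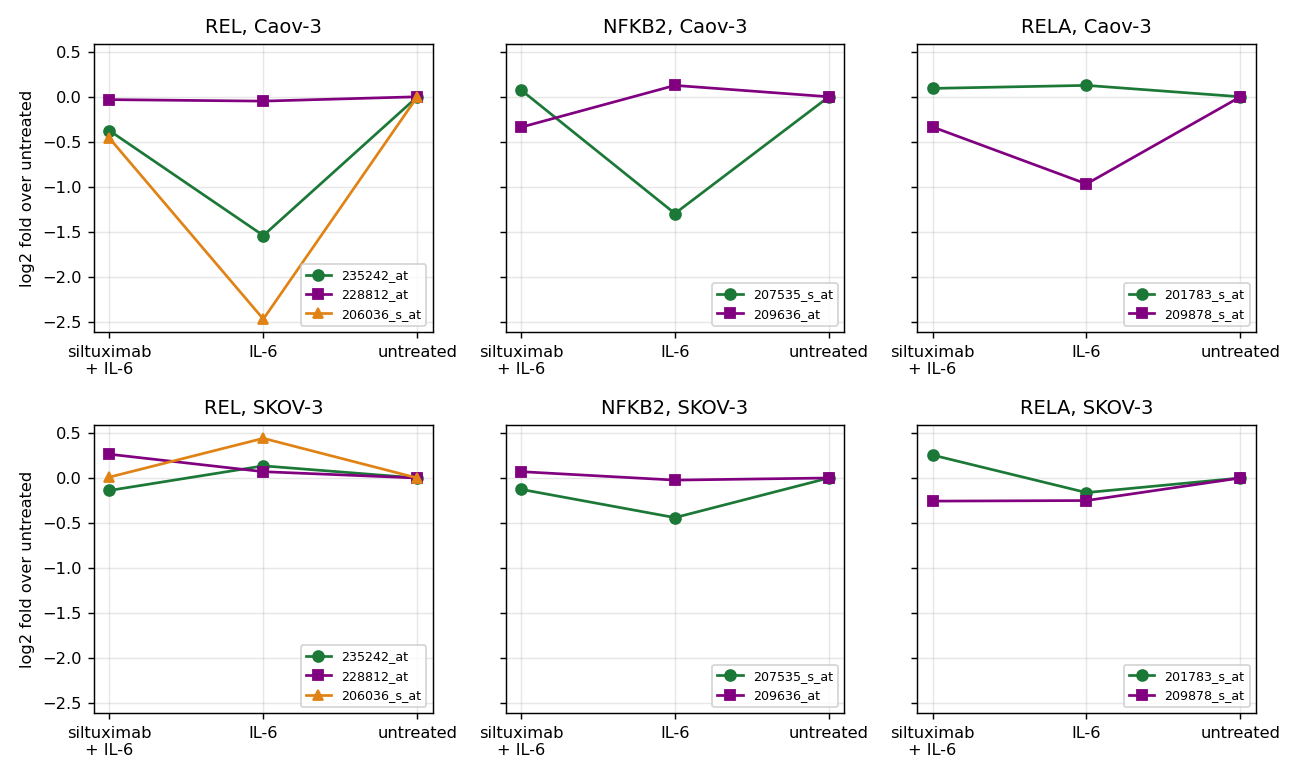
Log2 fold over untreated for each tested probe set of REL, NFKB2 and RELA, with siltuximab plus IL-6, IL-6 and untreated from left to right, Caov-3 above and SKOV-3 below. In Caov-3 the IL-6 array lies at -2.47 and -1.54 on 2 REL probe sets and at -0.05 on the third, while in SKOV-3 all points lie between -0.44 and 0.44.

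**Figure D4:**
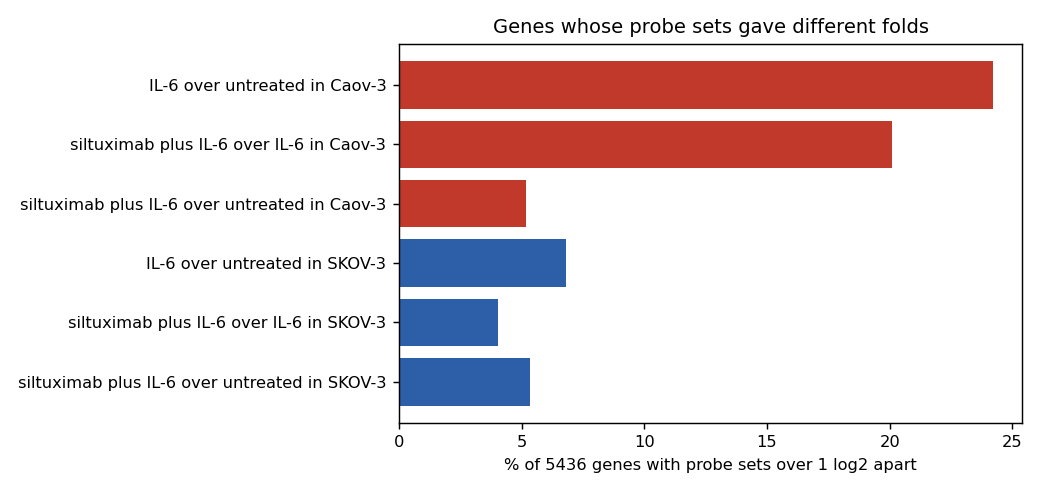
Share of the 5436 genes with at least 2 tested probe sets whose probe sets gave folds over 1 log2 unit apart, for the 3 comparisons of Caov-3 (red) and the 3 of SKOV-3 (blue). Both comparisons that use the Caov-3 IL-6 array are at 20.1% or more, and the other 4 at 4.05 to 6.82%.

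The inhibitors gave smaller folds with IL-6. TNFAIP3 202644_s_at was at 511 with IL-6 and 327 untreated in Caov-3, a log2 fold of 0.62, and its second probe set at 0.15; in SKOV-3 they were at -0.11 and 0.13. NFKBIE was at 487 with IL-6 and 340.4 untreated in Caov-3 (0.50), and at 588 with IL-6 and 590.1 untreated in SKOV-3 (0.00). NFKBIA 201502_s_at was at 6444 with IL-6 and 5148 untreated in Caov-3 (0.32), and at 3555 with IL-6 and 4655 untreated in SKOV-3 (-0.39). All inhibitor folds in Caov-3 were thus upwards, and none of the 4 tested probe sets was past 1.5-fold in SKOV-3.

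RELB stood below untreated in both lines, with folds of -0.45 in Caov-3 and -0.40 in SKOV-3, and NFKB1 at 0.14 and -0.17. CEBPB and 1 of the 2 CEBPD probe sets stayed near their untreated level. CEBPB had folds of 0.07 in Caov-3 and -0.10 in SKOV-3, and CEBPD 203973_s_at of -0.13 and 0.09. The second CEBPD probe set was at 0.44 and 0.35, below 1.5-fold in both lines (0.62 and 0.68 in Caov-3 after quantile and cyclic loess normalization, past it), with signals of 354 with IL-6 and 255 untreated in Caov-3 and of 54.1 with IL-6 and 38.7 untreated in SKOV-3.

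Over both lines, limma called 0 of the 16 member probe sets for IL-6 and 0% of all 20546 (1773 at an unadjusted p under 0.05, 2 of them members). Those 2 were NFKB2 207535_s_at, with a log2 difference of -0.87 ± 0.28, and RELA 209878_s_at, with -0.61 ± 0.21 (SE, limma adjusted p 0.561 for both). Both were lower on the IL-6 array of both lines. For CEBPB and CEBPD 203973_s_at the differences of -0.01 and -0.02 had 95% intervals of -0.22 to 0.19 and -0.26 to 0.23. A rise or fall of 1.5-fold common to both lines lies outside these intervals, which rest on 2 residual degrees of freedom and the fit's pooled variance. It does not for CEBPD 213006_at, where the difference was 0.40 and the 95% interval of -0.29 to 1.08 holds a 1.5-fold rise.

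**Figure D5:**
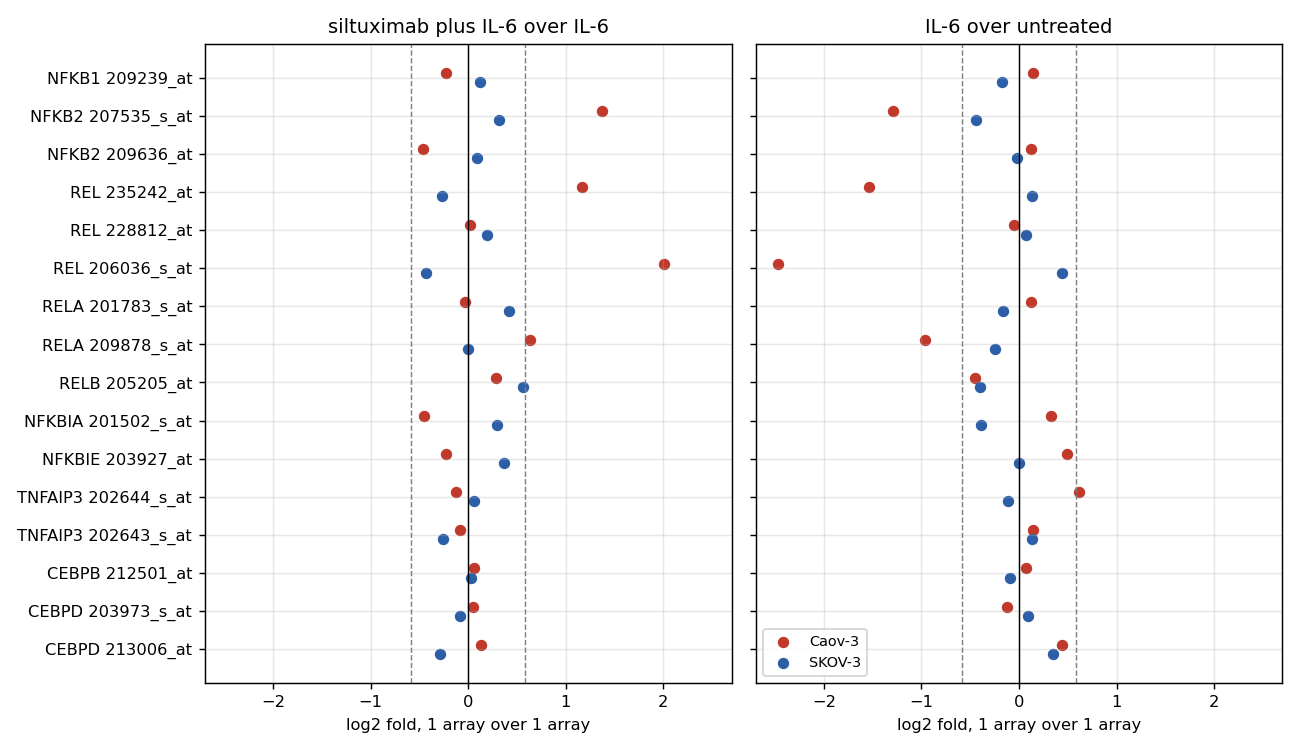
Log2 folds of 1 array over 1 array for the 16 tested member probe sets in Caov-3 (red) and SKOV-3 (blue), siltuximab plus IL-6 over IL-6 on the left and IL-6 over untreated on the right, with dashed lines at 1.5-fold. The Caov-3 points of REL, NFKB2 and RELA past the lines use the same IL-6 array in both panels, TNFAIP3 202644_s_at is past them on the right only, and no SKOV-3 point is past them.

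The last comparison set siltuximab plus IL-6 against IL-6. It shares the IL-6 arrays with the comparison above, so that a low IL-6 array gives a fold down there and a fold up here. In Caov-3, 4 of 16 member probe sets were at least 1.5-fold higher with the antibody, against 11.3% of all tested, and 0 were lower, against 2.26%. These were the same 4 probe sets that were lower with IL-6. Of all probe sets past 1.5-fold, 83.3% were higher, against 62.6% after quantile and 64.1% after cyclic loess normalization. REL 206036_s_at was at 302 with the antibody and 62.4 without it (2.01, or 1.25 with a pseudocount of the median), REL 235242_at at 1046 and 457 (1.16), NFKB2 207535_s_at at 675 and 250.5 (1.37), and RELA 209878_s_at at 702 and 447 (0.63).

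The other probe sets of those genes gave folds of 0.02 for REL 228812_at, -0.46 for NFKB2 209636_at and -0.03 for RELA 201783_s_at. NFKBIA 201502_s_at was at 4702 with the antibody and 6444 without it in Caov-3 (-0.45), but at 4367 with the antibody and 3555 without it in SKOV-3 (0.30). TNFAIP3 202644_s_at, past 1.5-fold with IL-6 in Caov-3, was at -0.13 with the antibody there and at 0.05 in SKOV-3. TNFAIP3 202643_s_at was at -0.08 in Caov-3 and -0.26 in SKOV-3, and NFKBIE at -0.23 and 0.36. RELB had folds of 0.28 in Caov-3 and 0.56 in SKOV-3. The C/EBP factors had folds of 0.06, 0.05 and 0.13 in Caov-3 and were at 0.03, -0.08 and -0.29 in SKOV-3 for CEBPB and the 2 CEBPD probe sets.

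In SKOV-3 no tested member probe set passed 1.5-fold with the antibody, where 2.29% of all were higher and 3.16% lower. Limma over both lines called 0 member probe sets and 0% of all (509 at an unadjusted p under 0.05, among them NFKB2 207535_s_at with a log2 difference of 0.84 ± 0.28 (SE) and a limma adjusted p of 0.964). The comparison against untreated leaves the IL-6 arrays out of the folds. In it, no tested member probe set passed 1.5-fold with siltuximab plus IL-6 in Caov-3 (2.91% of all higher, 3% lower) or in SKOV-3 (2.97% and 3.57%). The Caov-3 folds of that comparison were at -0.46 and -0.37 for REL 206036_s_at and 235242_at, 0.08 for NFKB2 207535_s_at, -0.33 for RELA 209878_s_at and 0.49 for TNFAIP3 202644_s_at. Limma called 0 probe sets there as well (965 at an unadjusted p under 0.05, no member among them).

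Genes around the pathway were read from lists, with the brightest probe set of each gene. Over all 11250 genes tested, 36.7% were higher and 31.7% lower in Caov-3, with a median log2 difference of 0.05. Among activating kinases and adaptors, 8 of 19 were higher and 4 lower in Caov-3 (median 0.16). MAP3K14, the kinase NIK that starts the alternative pathway to p52 and RELB, had the largest difference of its list. It was at 268, 159 and 216 in Caov-3, against 1217, 997 and 1043 in SKOV-3, a log2 difference of -2.28 ± 0.14 (SE, limma adjusted p 0.000121). MAP3K7 (TAK1) and its partner TAB3 were higher in Caov-3 by 1.30 each.

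Of the other inhibitors and regulators, 3 of 10 were higher and 2 lower in Caov-3 (median 0.12). NFKBIB, a further cytoplasmic inhibitor, was lower with -1.22, and PDLIM2, a ligase that ends RELA activity in the nucleus, higher with 1.38. Of 10 receptors 4 were higher and 3 lower (median 0.14). The IL-1 receptor chains stood opposite ways, IL1R1 at 2.49 and IL1RAP at -4.37. IL1RAP was at 25.6, 17.1 and 73.7 in Caov-3, against 1107, 1042 and 960.3 in SKOV-3, and passed the filter only through its SKOV-3 signals.

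Of 23 NF-kB targets, 11 were higher and 7 lower in Caov-3 (median 0.24). The chemokine CXCL1 was at 3784, 3736 and 3122 in Caov-3, against 217, 241 and 210.3 in SKOV-3, while the cytokine IL1A was at 36.6, 2.54 and 3.94 in Caov-3, against 1319.7, 1227 and 1216 in SKOV-3. Their log2 differences were 3.89 and -5.50, so targets of the same factor stood opposite ways. CCL5 was also lower in Caov-3, with -3.85. Both IL1A and CCL5 were dim in Caov-3 and passed the filter only through their SKOV-3 signals. Of the other C/EBP family genes and regulators, 0 of 8 were higher and 6 lower (median -1.002), with TRIB1, which targets CEBPA for degradation, at -2.60, the C/EBP relative DDIT3 at -2.16 and TRIB3 at -1.90. Of 9 C/EBP targets, 7 were higher and 1 lower (median 2.43), with S100A9 at 6.14 and the pentraxin PTX3 at -5.89. S100A9 and S100A8 were dim in SKOV-3 and passed the filter only through their Caov-3 signals, which limits this count and median.

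With IL-6, limma called 0 genes in any of these lists, and list medians lay between -0.01 and 0.21 in Caov-3 and between -0.20 and 0.05 in SKOV-3, against 0.07 and -0.05 for all genes. S100A8, a C/EBP target and calcium-binding protein of inflamed epithelium, had the largest IL-6 fold of its list in both lines. It was at 793 with siltuximab plus IL-6, 2254 with IL-6 and 917 untreated in Caov-3. In SKOV-3 it was at 3.72, 38.4 and 5.37 in the same order. Its log2 folds of IL-6 over untreated were 1.28 in Caov-3 and 1.31 in SKOV-3, those of siltuximab plus IL-6 over IL-6 were -1.49 and -1.42, and the difference over both lines was 1.29 ± 0.22 (SE, limma adjusted p 0.517, 0.00156 unadjusted). The SKOV-3 signals lie near or below the pseudocount, and a second S100A8 probe set was at 0.828 to 3.29 on all arrays.

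CHUK (IKK alpha), which drives the cut of NFKB2 to p52, was at 2541 with IL-6 and 1731 untreated in Caov-3 (0.55), and at 1793 with IL-6 and 1196 untreated in SKOV-3 (0.58). With siltuximab before IL-6 it was at 2431 in Caov-3 and at 1807 in SKOV-3, close to its IL-6 level. CXCL3 and SOD2 had IL-6 folds of 0.99 and 0.70 in Caov-3, and of -0.04 and 0.23 in SKOV-3. TNFRSF12A, a receptor that signals to the alternative pathway, was at 907 with IL-6 and 2868 untreated in Caov-3 (-1.64), and at 5865 with IL-6 and 6701 untreated in SKOV-3 (-0.19). The Caov-3 folds of these genes rest on the IL-6 array with the low ACTB ratio.

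Other listed genes had folds in both directions with IL-6. CEBPZOS, a gene next to CEBPZ that shares its name but is no C/EBP factor, was at 930.3 with siltuximab plus IL-6, 258 with IL-6 and 949 untreated in Caov-3, a log2 fold of -1.81 for IL-6 over untreated on the same array, against -0.14 in SKOV-3. DDIT3 was at 0.67 in Caov-3 and 0.16 in SKOV-3, CEBPA, the C/EBP factor of differentiating cells, at 0.61 and -0.58, and TRIB2 at 0.16 and -0.25. Among the NF-kB targets, the chemokine CCL20 was at 0.12 in Caov-3 and -0.57 in SKOV-3, and CXCL8 (interleukin 8) at 0.23 and 0.39. Of the other inhibitors and regulators, NFKBIB was at -0.69 in Caov-3 and 0.05 in SKOV-3, and ZFAND6 at 0.38 and 0.31. PDLIM2 was at -0.21 and -0.46, and OTUD7B at 0.01 and -0.42.

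The kinase IKBKE was at 0.43 in Caov-3 and -0.44 in SKOV-3, and the adaptor TAB1 at 0.43 and -0.30. Of the receptors, IL1RAP was at -1.41 in Caov-3 and 0.12 in SKOV-3, TLR2 at -0.13 and 0.49, and TNFRSF11A (RANK) at 0.42 and 0.46. The Caov-3 signals of IL1RAP were dim, at 17.1 with IL-6, close to the pseudocount, and 73.7 untreated. That fold uses the IL-6 array with the low ACTB ratio. None of these IL-6 differences was called over both lines. Between the lines, TLR3 was higher in Caov-3 by 2.33 on log2, ZFAND6 by 0.77 and S100A8, which passed the filter only through its Caov-3 signals, by 5.34.

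Across the 6 arrays, the patterns most like those of RELB, CEBPD and REL 235242_at were sought among 5538 genes with a range of at least 1 on log2. RELB was most like RAPGEF1, ZNF35 and ABHD14B (Pearson r of 0.998 to 0.999), and CEBPD like DPYSL2, CDK5 and TTC39C (0.9995 to 0.9996). Such values are common where the lines differ, as 21.2% and 35.8% of the genes had r over 0.95 with RELB and CEBPD. REL 235242_at was most like LYRM2 (0.988), IPP (0.983) and IL10RB (0.98), with 0.235% of genes over 0.95. IL10RB was at 1847, 419 and 1841 in Caov-3, against 417, 587 and 448 in SKOV-3, low on the Caov-3 IL-6 array as REL 235242_at was.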

How the data were processed

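The authors deposited 1 signal intensity for each probe set and array, made with Affymetrix Expression Console and MAS5 per the submitters' processing notes, which name no version here. The 2% trimmed mean was 500.06 to 500.07 on all 6 arrays, so they had been scaled alike, and no further normalization was applied. RNA of 3 flasks was pooled per array, per the labels' protocols. Groups came from the sample titles.

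Of 54675 probe sets, 62 were controls, 41091 had 1 gene symbol in the platform annotation, 1801 several and 11721 none. All 10 symbols were found in RefSeq. Intensities were taken to log2 after adding 17.1, the 20th percentile. Probe sets with 1 symbol at or above the median mean (20546) were fitted with limma 3.58.1 in R 4.3.3 (line and treatment as factors, trended prior variance, 2 residual degrees of freedom, Benjamini-Hochberg adjustment over all, two-sided, threshold 0.05). The code was tested on simulated data. Folds within a line have 1 array per group and no test; 1.5-fold was the mark. P-values measure only the spread between these arrays. Figures used Python 3.11.15 and matplotlib 3.10.9.

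Named were all member probe sets, whatever their values, and from each pathway list up to 3 genes by line difference and 2 by IL-6 fold in each line. For likeness, the 3 members of widest range and the 3 genes of highest r were taken. The members and lists were chosen with earlier results of these data known.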

Additional observations from a re-analysis of the deposited data

Results flagged for a closer look

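The dim REL probe set 239486_at stood at least 1.5-fold from untreated with IL-6 in both lines and in opposite directions. It was at 34.1 with IL-6 and 92.5 untreated in Caov-3, a log2 fold of -1.10 that uses the array whose ACTB ratio was low, and at 62.7 with IL-6 and 35.4 untreated in SKOV-3, a fold of 0.60. The difference was not tested, since each line has 1 array per treatment, and the probe set lay below the filter on dim signals. At its signal level such folds were common, since 42.2% of probe sets of the same decile of mean signal were at least 1.5-fold apart in Caov-3 and 41.2% in SKOV-3. Among the 20546 brighter, tested probe sets 394 stood opposite ways with IL-6 and 186 the same way, while with siltuximab plus IL-6 against untreated cells, where no array of IL-6 alone enters, 69 stood opposite ways and 109 the same way.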

How the results depend on the processing

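No paired analysis by replicate number was possible because the labels give none and each group is 1 array. The fits themselves compare the lines within each treatment and the treatments within each line. Other normalizations, pseudocounts, filters, probe set choices and prior variances were tried, and each array was left out in turn. Of the single tests of member probe sets 882 stayed on their side of the threshold, 14 calls were lost and 12 gained, and no called value changed sign. For the lines, 12956 probe sets were called, against 7539 when the filter was set at the 75th percentile and 7261 with 1 probe set per gene, where fewer were tested. Members higher in Caov-3, 4 in the main fit, were 2 with 1 probe set per gene, 3 at the 75th percentile and 4 to 6 without 1 array. The 6 came without the Caov-3 or without the SKOV-3 IL-6 array, in fits with 1 residual degree of freedom. Members lower, 5 in the main fit, were 2 at the 75th percentile and 3 to 5 without 1 array.

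The treatment calls depended on single arrays. For IL-6 against untreated 0 to 2150 probe sets were called without 1 array, with 0 to 4 members lower; the 2150 and the 4 came without the SKOV-3 IL-6 array, where the comparison rests on Caov-3 alone, and the loss of the Caov-3 IL-6 array gave 5. For siltuximab plus IL-6 against IL-6 the range was 0 to 1515, with 0 to 3 members higher and 0 to 1 lower, again highest without the SKOV-3 IL-6 array, while the loss of the Caov-3 one gave 1. Against untreated it was 0 to 24.

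Counts of members past 1.5-fold moved as follows, and the cause was not tested. For IL-6 over untreated in Caov-3, 1 higher became 3 (quantile), 2 (cyclic loess), 0 (pseudocount of the median), 2 (no filter) and 0 (no probe sets ending in _x_at or _s_at), and 4 lower became 2 (75th percentile) and 1 (no such endings). For siltuximab plus IL-6 over IL-6 in Caov-3, 4 higher became 7 (no filter), 2 (75th percentile) and 1 (no such endings), and 0 lower became 1 under both normalizations. Over untreated in Caov-3, 0 higher became 1 under both normalizations and with a pseudocount of 1, and 2 with no filter. In SKOV-3 with no filter, 0 higher became 2 for IL-6 over untreated, 1 for siltuximab plus IL-6 over IL-6 (1 also with cyclic loess) and 1 over untreated. Signals near the pseudocount and 1 array per group limit all folds.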
